A study of Homo sapiens and Mus musculus with 5 samples.

Results

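The activity of 1555 alleles of human DNA fragments was compared between HEK-293T and PC-12 cells. HEK-293T derives from human embryonic kidney. PC-12 derives from a rat pheochromocytoma, although the organism given in its labels is mouse. The alleles were those with plasmid input above 0 in the deposited tables of both lines, out of 1625 alleles in at least 1 of the series' 4 tables. They came from 953 fragments of 346 SNPs linked to schizophrenia, 20 with an rs number for a name and 326 named by their position. Fragments carried 50, 100 or 150 bases in front of the SNP (491, 536 and 528 alleles), and 602 fragments had both alleles. Allele numbers (1 or 2) follow the tables.

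Each line was transfected with 1 plasmid pool, and the groups were RNA of HEK-293T (3 libraries, numbered 1 to 3), RNA of PC-12 (2 libraries, numbered 1 and 3, with library 2 not analysed here) and the plasmid DNA before transfection (3 libraries, shared by both lines). No other treatment, allele or time is given in the labels. Both lines are proliferating tumour or transformed cells that held the fragments on a plasmid, so the chromatin of the native locus was not part of the measurement. Only plasmid fragments were counted, so the identity of the lines could not be checked against marker genes.

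STARR-seq, the assay used, places a candidate enhancer inside the transcribed part of a reporter, so that the fragment's own RNA records how strongly it drives transcription. Activity is the RNA of a fragment relative to its plasmid DNA. An enhancer is active where the cell supplies transcription factors that bind it, so the same fragment can differ between cell types. Because both lines received the same pool, the input cancels when RNA is set against RNA, and differences below are the log2 of HEK-293T over PC-12. They are relative to the typical allele of a library: a smaller share of transfected cells and less RNA per plasmid cannot be told apart.

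Member totals were between 6111541 and 7856512 counts in the RNA libraries and between 6421540 and 8223498 in the input. A count of 0 stood for 254 alleles (16.3%) in HEK-293T library 2 and 126 (8.10%) in PC-12 library 3, and for 15 to 25 alleles in the other RNA libraries. Alleles at 0 in those 2 libraries had a median input of 1280 and 1221 counts, against 3518 over all. Yet 440 RNA values were 0 while only 23 lay between 1 and 9. Alleles at 0 in those 2 libraries had a median of 729 and 542 counts in the mean of the other 4 RNA libraries. For alleles at 0 in HEK-293T libraries 1 and 3 and PC-12 library 1 it was 4476, 2321 and 1568. The cause of the zeros was not tested. No allele was at 0 in more than 2 of the 5 RNA libraries, and 1209 had no 0.

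The lines differed less from each other than libraries of 1 line did, when libraries with the same number were compared. The median allele differed by 0.37 on the log2 scale between HEK-293T library 1 and PC-12 library 1, and by 0.57 between the libraries numbered 3. Within HEK-293T the median difference was 1.06 between libraries 1 and 2, 0.72 between 1 and 3 and 0.74 between 2 and 3. Within PC-12 it was 0.83. Across lines and numbers it lay between 0.78 and 1.07. Without alleles at 0, the values for libraries of the same number were 0.35 and 0.51, and those within a line 0.55 to 0.84. The labels call the replicates biological and do not say what equal numbers share. The part of a shared culture or day in the distances was not tested. Fits below with the library number as a block weigh how far the differences between lines at numbers 1 and 3 disagree, with spread shared over alleles. Their p-values do not measure the spread between libraries of 1 line, which only fits without the block use.

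The spread of activity also followed the library number. Over alleles with no 0, the SD of log2 RNA over input was 0.85 in HEK-293T library 1 and 0.92 in PC-12 library 1. It was 1.74 and 1.47 in HEK-293T libraries 2 and 3 and 1.56 in PC-12 library 3. In library 1, 5.29% of alleles in HEK-293T and 8.35% in PC-12 were over 2-fold above the input, against 21.7% to 22.7% in the other libraries.

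No allele passed the test for a difference between the lines when all 1555 were fitted with the library number as a block (0% called; edgeR, quasi-likelihood, Benjamini-Hochberg). The smallest adjusted p was 0.585. At an unadjusted p under 0.05 the fit gave 122 alleles (7.85%), 49 higher in HEK-293T (3.15%) and 73 in PC-12 (4.69%). DESeq2 called 331 alleles (21.3%), 163 higher in HEK-293T (10.5%) and 168 in PC-12 (10.8%). Limma-voom called 41 (2.64%), 11 higher in HEK-293T (0.707%) and 30 in PC-12 (1.93%). HEK-293T library 2 has no partner under the block, and the fit keeps 1 residual degree of freedom.

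With the 346 alleles at 0 in any library left out, edgeR called 100 of 1209 alleles (8.27%), 37 higher in HEK-293T (3.06%) and 63 in PC-12 (5.21%). Their log2 differences were between 0.68 and 4.90 in size, with a median of 1.10. This fit took 1 spread for all alleles, and 9 of the calls had opposite signs in the pairs of libraries 1 and 3. Of the 100, 79 were over 0.5 in both pairs with the same sign, as were 212 of all 1209 alleles (17.5%). The largest difference, inside CIRSR, had 79, 764 and 1 counts in HEK-293T and 1307 and 167 in PC-12. Other large ones rested on 1 low library. Inside MIGA2, with 75 counts in PC-12 library 3, the pairs stood at 0.28 and 6.32. Inside AP3B2, with 74 in HEK-293T library 3, they stood at -0.26 and -7.25. Of the same 1209 alleles DESeq2 called 105 (8.68%), limma-voom 60 (4.96%) and limma on log2 CPM (counts scaled to a common library size) 113 (9.35%), and 53 were called by all 4 tests. Without HEK-293T library 2 edgeR called 109 (9.02%). Reading only libraries 1 and 3 for the zeros, it called 115 of 1393 (8.26%). Scaling by library totals turned the balance, with 97 called (8.02%), 51 higher in HEK-293T (4.22%) and 46 in PC-12 (3.8%). Without the block edgeR called 0, with 29 of the 1209 at an unadjusted p under 0.05, a smaller share than that threshold alone would give. Calls in this paragraph are given below as calls without zeros.

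The pairs can be read without a model. Libraries 1 and 3 give separate differences that share no library. Among alleles with no 0, 11 (0.91%) were over 2-fold higher in HEK-293T in both pairs, 21 (1.74%) over 2-fold higher in PC-12 in both, and 4 over 2-fold in opposite directions. Over all members the first 2 counts were 28 (1.8%) and 32 (2.06%). Across the 1209 alleles the difference in pair 1 and that in pair 3 had a Pearson r of 0.29 and a Spearman rho of 0.41, and 65.8% had the same sign. Over all 1555 alleles r was 0.12 and rho 0.35. The RNA levels of the lines did not overlap for 118 alleles higher in HEK-293T (7.59%) and 156 higher in PC-12 (10%). With 3 libraries against 2, a random order of the libraries gives about such shares in each direction, so nothing is read from them. Where an allele below is said not to overlap, this describes its counts only. The counts and correlations of the pairs are descriptions too, and alleles are not independent replicates.

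The alleles higher in PC-12 with the smallest unadjusted p came from 5 SNPs. None passed in the fit of all alleles, with a Benjamini-Hochberg adjusted p from edgeR of 0.585 for all 8. All 8 were called without zeros. That fit reads the same counts of these alleles with the same model, so the choice all but fixes this and it is no separate support. Genes were taken from GRCh38.p14, and a gene name holds only if the tables' positions use that build, which no source used here states.

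The SNP at position 63468418 of chromosome 17 lies 8643 bases from ACE, the gene of angiotensin-converting enzyme. Allele 2 with 150 bases in front had 4377, 3065 and 6967 counts in HEK-293T libraries 1, 2 and 3, and 34650 and 26334 in PC-12 libraries 1 and 3. Both PC-12 libraries were above all 3 of HEK-293T. The log2 difference was -2.73 in pair 1 and -1.89 in pair 3, and -2.31 ± 0.30 (SE) in the blocked fit. Against the input, its activity was -1.03 ± 0.69 in HEK-293T (SD, n = 3) and 1.64 ± 0.18 in PC-12 (SD, n = 2), so the lines stood on opposite sides of the plasmid level. Allele 1 of the same fragment had 1356, 3590 and 4009 counts in HEK-293T and 7485 and 12987 in PC-12, again without overlap, at -1.94 ± 0.27 (SE).

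The other placements of this SNP did not show it. With 100 bases in front, the differences of alleles 1 and 2 were 0.16 and 0.07 in pair 1 and 1.01 and 0.24 in pair 3. With 50 bases in front they were 0.13 and -0.38 in pair 1 and 0.72 and 0.66 in pair 3. None of these 4 alleles was called without zeros. The 2 alleles of 1 placement thus moved alike while the other placements, which hold other flanking bases, gave values near 0 or of the opposite sign. Whether the placements differ was not tested.

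The SNP at position 38401963 of chromosome 8 lies inside LETM2, a gene related to the mitochondrial membrane protein LETM1. With 100 bases in front, allele 1 had 2120, 2928 and 1077 counts in HEK-293T and 12673 and 4630 in PC-12. Allele 2 of that fragment had 2501, 876 and 3097 counts in HEK-293T and 13686 and 9633 in PC-12. With 150 bases in front, allele 2 had 2725, 8243 and 9539 counts in HEK-293T and 15406 and 28192 in PC-12. PC-12 was above HEK-293T in every library for each of the 3, with pair differences from -2.32 to -1.54. Their blocked differences were -2.20 ± 0.25, -1.90 ± 0.28 and -1.89 ± 0.26 (SE). A further member, allele 1 with 150 bases in front, stood at -2.21 and -1.40 in the pairs and was not called without zeros. With 50 bases in front, allele 2 stood at 0.01 and -0.05, with 1590, 0 and 1841 counts in HEK-293T libraries 1, 2 and 3 and 1894 and 1938 in PC-12. The 0 in library 2 does not enter the pairs.

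At position 44907814 of chromosome 20, inside YWHAB, which encodes a 14-3-3 signalling adaptor, 4 of 6 alleles were called without zeros, all higher in PC-12. Allele 2 with 50 bases in front had 10514, 13523 and 10039 counts in HEK-293T and 26682 and 26023 in PC-12, at -1.22 ± 0.17 (SE). In PC-12 its activity was 1.29 ± 0.08 (SD, n = 2), against 0.12 ± 0.13 (SD, n = 3) in HEK-293T. The fragment with 150 bases in front again differed from the rest, with -0.08 to 0.88 for its alleles in the pairs.

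Near SNX19, a sorting nexin gene of endosomal transport, allele 1 with 150 bases in front at position 130848918 of chromosome 11 had 10943, 20363 and 13542 counts in HEK-293T and 33577 and 42498 in PC-12. The groups did not overlap, and the difference was -1.49 ± 0.17 (SE), the smallest unadjusted p of the blocked fit at 0.00222. Near MAU2, a cohesin loader gene, allele 2 with 150 bases in front at position 19367213 of chromosome 19 had 444, 9664 and 8897 counts in HEK-293T and 1834 and 24643 in PC-12. Here library 1 was lowest in each line and the levels overlapped, while each pair had PC-12 higher, at -1.77 and -1.44. Allele 1 of this MAU2 fragment stood at -0.62 and -1.68 and was not called without zeros. The other placement of the SNX19 SNP stood at -0.0018 and -0.42, and alleles 1 and 2 of the MAU2 SNP with 100 bases in front at -0.19 and 0.07 in pair 1 and 0.21 and 0.58 in pair 3.

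Counts of the other lines give these alleles a setting. Of the 8 alleles higher in PC-12, 7 had both PC-12 libraries above all 9 libraries of HEK-293T, Neuro-2a (mouse neuroblastoma) and SH-SY5Y (human neuroblastoma), all but the MAU2 allele. The 8 were chosen with PC-12 above HEK-293T, which fixes part of this order. Among all 1436 alleles in the 4 tables, 40 (2.79%) had it, and nothing is read from the difference between these shares. For allele 2 near ACE, CPM were 4350 and 3805 in PC-12, 398 to 1021 in HEK-293T, 91.9 to 1645 in Neuro-2a and 734 to 1201 in SH-SY5Y. With all 4 lines in the fit and alleles at 0 left out, 3 of 1045 alleles passed for HEK-293T against PC-12 (0.287%), all higher in PC-12. They were the SNX19 allele at -1.50 ± 0.20, the LETM2 allele with 150 bases in front at -1.90 ± 0.28 and allele 2 with 100 bases in front near EPO at -1.43 ± 0.22 (SE). Each had an adjusted p of 0.0181 (edgeR, Benjamini-Hochberg). The EPO allele, chosen after its values were seen, had 6785, 7249 and 9674 counts in HEK-293T and 25516 and 20636 in PC-12.

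The 8 alleles higher in HEK-293T by the same rule had differences between 0.76 and 2.17 in the blocked fit. Their adjusted p over all alleles was 0.585 (edgeR, Benjamini-Hochberg). All were called without zeros, which the choice again all but fixes. Of the 8, 1 (near PPARGC1A) had all HEK-293T libraries above those of the other 3 lines, an order that the choice again fixes in part and that 9 of 1436 alleles had (0.627%).

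Inside MANBA, the gene of lysosomal beta-mannosidase, allele 2 with 50 bases in front at position 102730805 of chromosome 4 had 9096, 5135 and 6240 counts in HEK-293T and 3380 and 1047 in PC-12. The levels did not overlap, at 2.14 ± 0.36 (SE). Its activity was below the input in all 5 libraries, at -0.83 ± 0.57 in HEK-293T (SD, n = 3) and -2.71 ± 1.09 in PC-12 (SD, n = 2). Allele 2 with 100 bases in front had the opposite order, with 28, 80 and 177 counts in HEK-293T and 260 and 681 in PC-12, and it was not called without zeros. Allele 1 of the first fragment did not share its direction, with 4054, 67 and 0 counts in HEK-293T and 4655 and 10543 in PC-12, and pair differences of 0.06 and -10.6, the second resting on the 0.

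The SNP at position 23421980 of chromosome 4 has PPARGC1A as its nearest gene, 370041 bases away, which encodes a coactivator of mitochondrial gene programmes. Allele 2 with 150 bases in front had 2967, 6129 and 2715 counts in HEK-293T and 1226 and 391 in PC-12. The groups did not overlap, and the difference was 2.17 ± 0.47 (SE). Allele 1 of that fragment stood at 1.37 and 0.43 in the pairs and was not called without zeros. With 100 bases in front, allele 2 had opposite signs in the pairs, at -0.87 and 2.09. With 50 bases in front, allele 1 stood at -0.03 and 7.08 and allele 2 at 6.29 and 0.04. The 7.08 and the 6.29 each rested on a 0 in PC-12.

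Near DTNB, which encodes dystrobrevin beta, allele 2 with 150 bases in front at position 25376303 of chromosome 2 had 4334, 39326 and 24575 counts in HEK-293T and 2123 and 11761 in PC-12. The levels overlapped across numbers, while each pair had HEK-293T higher, by 1.28 and 1.09. With 100 bases in front, allele 2 of this SNP stood at 0.97 and 0.14 and was not called without zeros. Near SYT13, a synaptotagmin gene, allele 1 with 50 bases in front at position 45308670 of chromosome 11 had 2683, 12272 and 11586 counts against 1459 and 6104. It too overlapped across numbers and was higher in HEK-293T in both pairs, at 1.13 and 0.95. The other members of the SYT13 SNP, all allele 2, did not share this: they stood at 0.65 and -0.09 with 50 bases in front, -0.43 and -1.02 with 100, and -0.07 and 0.04 with 150. Near CTSF, the gene of the lysosomal protease cathepsin F, allele 2 with 50 bases in front at position 66573497 of chromosome 11 had 1781, 7540 and 4743 counts against 1017 and 1460. These did not overlap, and the difference was 1.40 ± 0.31 (SE). Allele 1 of that fragment stood at 0.06 and -0.14, and allele 1 with 100 bases in front at 2.83 and -0.48. Allele 2 was higher in HEK-293T in both pairs at the other placements, at 2.05 and 1.56 with 100 bases and 0.95 and 0.49 with 150. The one with 100 bases had a count of 0 in HEK-293T library 2. Only the named allele of this SNP was called without zeros.

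At position 89300719 of chromosome 15, inside FANCI, a gene of DNA crosslink repair, 2 placements of allele 2 were called without zeros. With 150 bases in front it had 14405, 17184 and 19556 counts against 9677 and 9827, without overlap, at 0.92 ± 0.17 (SE). With 100 bases it had 22034, 14592 and 14995 against 16281 and 8630, which overlapped, at 0.76 ± 0.16 (SE). With 50 bases allele 2 stood at 0.78 and 7.48 in the pairs, the second resting on a 0. Allele 1 was higher in HEK-293T in both pairs too, at 0.36 and 0.33 with 50 bases, 0.50 and 0.95 with 100 and 0.46 and 1.35 with 150. Allele 1 was not called without zeros. At position 84562751 of chromosome 15, near the zinc finger gene ZSCAN2, allele 1 with 100 bases in front had 12042, 6400 and 7850 counts against 7515 and 2733, at 1.24 ± 0.26 (SE). After scaling, HEK-293T library 2 was below PC-12 library 1, so the levels overlapped. Of the 5 alleles of that SNP, 3 were called without zeros, all higher in HEK-293T.

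Strong activity was found in both lines for some alleles, and it rested on libraries 2 and 3. Of the 1555 alleles, 185 were above the input in all 5 RNA libraries and 339 below it, 14 and 60 by over 2-fold. With alleles at 0 left out, the counts below the input were 215 and, by over 2-fold, 24. Both lines share the input, so their counts are given side by side only. Among the 5 alleles highest in the mean of both lines, allele 2 with 100 bases in front at position 84581411 of chromosome 15, near ZSCAN2, had activities of 1.22, 4.91 and 5.03 in HEK-293T and 2.18 and 5.70 in PC-12. Allele 1 with 50 bases in front at position 40279991 of chromosome 15, inside the ankyrin repeat gene ANKRD63, had 1.54, 4.87 and 4.38 against 1.31 and 4.92. Allele 2 with 150 bases in front at position 89631217 of chromosome 16, inside DPEP1, a gene for a dipeptidase, had 1.02, 4.72 and 4.88 against 0.74 and 5.03. In each line library 1 was the lowest for all 3, and their mean input was between 426 and 760 counts. Strong activity in both lines did not mean equal activity. The ZSCAN2 allele was called higher in PC-12 without zeros, at -0.83 ± 0.25 (SE). The rest of the 5 were alleles 1 and 2 at position 19367213 near MAU2 with 150 bases in front. Of these, allele 2 is named above as higher in PC-12.

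The 5 alleles lowest in both lines came from 4 SNPs. Allele 1 of the MANBA SNP with 150 bases in front had a mean input of 10347 counts and 63, 44 and 0 counts in HEK-293T and 64 and 21 in PC-12. Allele 2 inside ITIH1, the gene of a heavy chain of the inter-alpha-trypsin inhibitor, had an input of 6851 counts and 64, 941 and 0 against 32 and 0. Allele 2 near PPARGC1A with 100 bases in front had an input of 12743 counts and 49, 1359 and 51 against 114 and 7. Allele 1 of that SNP with 50 bases in front had 1168, 0 and 902 against 1428 and 0, and allele 2 of rs301798 with 150 bases in front had 28, 0 and 50 against 268 and 0. The lines overlapped for all 5, and the blocked differences had SEs of 2.15 to 11.1, too wide to order the lines.

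Some alleles of the most active 25% differed little between the lines. Allele 2 with 100 bases in front at position 150059494 of chromosome 1, inside the deubiquitinase gene OTUD7B, had 8570, 15917 and 16054 counts in HEK-293T and 10168 and 16269 in PC-12. Its difference was 0.01 in each pair and 0.01 ± 0.16 (SE) in the fit. Allele 1 with 100 bases in front at position 197510605 of chromosome 2 stood at 0.02 and -0.03 in the pairs, and allele 2 with 50 bases in front at position 48460718 of chromosome 2, inside PPP1R21, at -0.04 and -0.05. These 3 were chosen for small differences.

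The differences between the lines were correlated between the alleles of a fragment, and less so between placements of a SNP, as a description without a test. Over 360 fragments with both alleles free of 0, the differences of alleles 1 and 2 had r = 0.48 and rho = 0.62, and 76.4% had the same sign. With allele 1 read in pair 1 and allele 2 in pair 3, which share no library, r was 0.28 and rho 0.41, and the other way round 0.30 and 0.46. For the same allele at 2 placements, r was 0.06 and rho 0.20 for 50 with 100 bases in front (n = 228). They were 0.20 and 0.27 for 100 with 150 (n = 268), and 0.16 and 0.18 for 50 with 150 (n = 240). Read across pairs that share no library, r for placements lay between -0.02 and 0.16 and rho between 0.04 and 0.26. Alleles of a fragment share all but the SNP, and placements share only part of their bases. Of the 360 fragments, 12 had both alleles called without zeros, all 12 in the same direction, and 35 had 1 allele called.

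Whether the difference between lines depended on the allele was tested as an interaction over 602 fragments. With edgeR and Benjamini-Hochberg adjustment 0 passed (0% called), 2 had an unadjusted p under 0.05 (0.332%), and limma-voom called 0 with 24 at that level. The edgeR share is far smaller than that threshold alone would give. As in the line fit, the block leaves few residual degrees of freedom. The test could thus call little, and the 0 does not show that the difference is the same for both alleles. The smallest p was 0.0190, with an adjusted p of 0.883, for a fragment inside ANKRD45 at position 173677634 of chromosome 1. There allele 1 had 263, 0 and 125 counts in HEK-293T and 739 and 376 in PC-12, and allele 2 had 903, 8810 and 11367 against 504 and 8056. Fragments near LINC02210-CRHR1 and inside CUL9 followed, with interactions of 1.58 ± 0.35 and -1.74 ± 0.47 (SE) and adjusted p of 0.883 by edgeR.

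Calls without zeros were set out by feature, beside 8.27% over all. They made up 10.7% of alleles with 50 bases in front (40 of 375), 7.97% with 100 (33 of 414) and 6.43% with 150 (27 of 420). For alleles 1 and 2 the shares were 8.44% and 8.12%. With alleles divided into 4 equal sets by input, the share was 3.48%, 6.56%, 6.73% and 13.9% from the lowest input to the highest. Among SNPs inside a gene it was 7.98%, and 9.11% outside. On chromosome 15 it was 20.0% (13 of 65), and on chromosome 10 it was 0 of 33. None of these differences was tested.

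Gene groups often discussed for schizophrenia held few alleles. The lists hold SNPs inside the genes. The transcription factor list had 45 alleles of 10 SNPs, and of the 37 free of 0, 0 were called higher in HEK-293T and 4 in PC-12 (10.8%), beside 8.27% over all alleles free of 0. Their median difference was -0.15 against -0.01 over all. The 4 lay in TCF20, a transcriptional coregulator gene, and at a SNP inside both OSBPL10 and ZNF860. No allele of the list inside TCF4, FOXP1 or SP4 was called. The list does not hold every transcription factor gene. Outside it, and chosen after their values were seen, 1 allele inside FOXO3 was called higher in HEK-293T at 1.65 ± 0.53 (SE), and 1 inside NFATC3 and 2 inside ZNF823 higher in PC-12 at -0.98 ± 0.32, -0.84 ± 0.24 and -0.78 ± 0.25 (SE). Of 14 glutamate receptor alleles free of 0, 1 was called (7.14%, beside 8.27% over all), in the metabotropic receptor gene GRM3, higher in HEK-293T at 0.85 ± 0.26 (SE). The adhesion list was drawn up by gene symbol, and of its 12 alleles 1 was called (8.33%), higher in PC-12. It lies in CDH16, the gene of a kidney cadherin and not a neural one, so no allele inside a neural adhesion gene of the list was called. Calcium channel genes (CACNA1C and CACNA2D2) had 0 of 5 and the locus of CNNM2, NT5C2 and WBP1L 0 of 14, with a median difference of 0.46 at that locus. These too stand beside 8.27% over all alleles.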

How the data were processed

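The authors deposited 1 table per line of raw read counts (whole numbers) for each allele of a fragment, per the file headers. Per the labels' protocols, polyadenylated RNA was reverse-transcribed and amplified, and the libraries are called biological replicates. The submitters' processing notes name limma 3.40.6, with no model. Aligner, counting tool and genome build were not given in the sources used here.

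Alleles with a mean of at least 10 counts over the 5 RNA libraries were fitted, which all 1555 had. Counts were analysed in R 4.3.3 with edgeR 4.0.16 (trimmed mean of M values, quasi-likelihood test, two-sided, Benjamini-Hochberg adjustment over all alleles, threshold 0.05) with the library number as a block. Activity and pair differences used CPM plus 1. DESeq2 1.42.0 and limma 3.58.1 were alternatives. The fits of the line difference were tested on simulated counts with 1 spread for all alleles and no added zeros. That test set a bar for the size of the differences only, so it gives no error rate for the calls here. PCR reads are not independent molecules, so depth bounds counting error only. No 2 libraries agreed within sampling noise by chi-square.

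Named alleles were, per direction, the 8 with the smallest unadjusted p, the same sign in both pairs and no 0, since none passed; the 5 highest and 5 lowest in mean activity of both lines, on 1 side of the input in all 5 RNA libraries, with an input of at least 100; the 3 nearest to no difference among the 25% most active; and the 3 fragments with the smallest interaction p. Others, such as the single calls of the gene lists, were chosen after their values were seen. Members and lists were chosen with earlier results of these data known. A gene is the protein-coding gene containing the SNP, otherwise the nearest. No sequences of the fragments were used here.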

Additional observations from a re-analysis of the deposited data

Results flagged for a closer look

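Allele 2 near ACE with 150 bases in front was below the input in all 3 HEK-293T libraries and above it in both PC-12 libraries, with a log2 difference of -2.31 between the lines. The difference itself did not pass the test over all alleles, at an adjusted p of 0.585 (edgeR, Benjamini-Hochberg). Of all 1555 alleles, 30 had this order, 24 of them with no 0, and 20 had the opposite order. In 0 of the alleles with either order did every library of both lines stand over 2-fold from the input. These counts are descriptions, and nothing is read from them. For the allele near ACE, HEK-293T libraries 1 and 3 stood within 2-fold, at -0.93 and -0.39.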

How the results depend on the processing

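The count of 0 of 1555 alleles stayed 0 by edgeR without the replicate block. There 24 had an unadjusted p under 0.05, a smaller share than that threshold alone would give. The count also stayed 0 with library 1 alone as a block, with the input or all 4 lines in the fit, and with other size factors or library totals. It was 0 too with other minimum counts or thresholds, by limma on log2 CPM, and without any 1 HEK-293T library (without the block except for HEK-293T library 2). It was 331 by DESeq2 and 41 by limma-voom. Leaving out alleles at 0 gave 100, and, in alternatives chosen after seeing the data, 105 by DESeq2, 60 by limma-voom, 113 by limma on log2 CPM, 97 with library totals, 109 without HEK-293T library 2, 115 where only libraries 1 and 3 were read, 3 with all 4 lines and 0 without the block. Without zeros, the blocked edgeR fit took 1 spread for all alleles. For the SNX19 allele the difference went from -1.49 ± 0.17 to -1.51 ± 0.23 (SE). Its unadjusted p by edgeR went from 0.00222 to 1.8e-10, although the SE was larger. For allele 2 near ACE the SE went from 0.30 to 0.24 and the unadjusted p by edgeR from 0.00343 to 1.8e-21. The cause of the change in the number of calls was not tested. The allele near MAU2 turned to 1.94 without PC-12 library 3 and without the block, the 1 reversal among the 16 named differences. Without PC-12 library 3 and the block, others moved by over 1.5 times: near DTNB to 3.55, SYT13 2.77, CTSF 2.35 and ZSCAN2 0.45, inside FANCI (100 bases in front) 0.30 and MANBA 1.24, near ACE (allele 1) -1.14 and inside LETM2 (150 bases) -0.98. Without PC-12 library 1 and the block, SYT13 moved to 0.51, PPARGC1A to 3.28 and LETM2 (100 bases, allele 1) to -1.22. Without HEK-293T library 1 and the block, DTNB moved to 2.15, SYT13 1.64, CTSF 2.33, ZSCAN2 0.61, FANCI 0.36 and MAU2 -0.56. Libraries of the same number in the 2 lines correlated at 0.90 and 0.79 over alleles with no 0, other pairs at 0.47 to 0.65, with 2 shared numbers only. The blocked fit without any other single library has no residual degrees of freedom and was not run. The allele interaction stayed at 0 in each alternative.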

Other observations

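Of the 74 SNPs with a call among alleles free of 0, 19 had several, and in 18 of these all calls had 1 direction. Alleles of a SNP share bases and were read in the same libraries, and 63 of the 100 calls were higher in PC-12. A shared direction within a SNP is therefore no separate support. The SNPs named here were chosen after their values were seen. The SNP at position 100715476 of chromosome 7, near EPO, the erythropoietin gene, had all 4 of its alleles called higher in PC-12, over 3 placements, at -1.04 ± 0.26, -1.37 ± 0.23, -1.20 ± 0.29 and -1.39 ± 0.29 (SE). Single pairs lay between -1.65 and -0.86, so each allele was higher in PC-12 in both. A second SNP near SNX19, at position 130848735 of chromosome 11, had 2 alleles called higher in PC-12, at -1.14 ± 0.23 and -0.86 ± 0.26 (SE). It lies so close to the first, at position 130848918, that fragments of the 2 SNPs may share bases, depending on which side is the front. Near MRTFA, a gene of a serum response factor coactivator, both alleles with 150 bases in front at position 40654982 of chromosome 22 were called higher in PC-12. Allele 1 had 1739, 6903 and 4419 counts in HEK-293T and 4707 and 12864 in PC-12, which overlapped. Allele 2 had 20595, 23685 and 17559 against 51576 and 33457, which did not.

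The exception with calls in both directions lay inside FURIN, the gene of a proprotein convertase. Its alleles with 50 bases in front were called higher in PC-12, at -0.94 ± 0.26 and -3.41 ± 0.45 (SE), and allele 2 with 100 bases in front higher in HEK-293T at 0.96 ± 0.31 (SE). The first 2 had opposite signs in the pairs, at -2.44 and -7.68 in pair 1 and 0.59 and 0.66 in pair 3, so the calls rest on the libraries numbered 1. Allele 2 had 30, 22765 and 12851 counts in HEK-293T and 9033 and 8246 in PC-12.

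A further 59 alleles were in the PC-12 table only and 6 in the HEK-293T table only. The 59 had a median input of 1151 counts and a median of 388 counts in PC-12 RNA, against 3518 and 3318 for the alleles in both tables.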
